A study of Mus musculus with 4 samples.

Results

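The genes described here are 46 transcripts of monocytes and macrophages, selected on their levels in these same libraries as myeloid genes that stood higher after therapy against PD-1. All 46 were found among the 64253 gene entries of each count file. One of them, CSF2RA, lies in the region shared by the X and Y chromosomes and was not analysed, so 45 genes are described. The comparison between the libraries from before and from after therapy chose the genes, and its values are given below as a description only. The ratio between both libraries from after therapy is a different contrast, but the levels that form it also entered the selection. The question was whether a single ratio, as a single shared amount of monocyte RNA would give, describes the genes one by one.

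RNA came from blood CD8+ T cells sorted for high CD11a in patients given a PD-1 antibody every 3 weeks, with 4 doses to a cycle. There were 4 libraries, with 1 per group: both a responder and a non-responder were labelled as before and as after therapy. Nothing in the labels ties a library from before therapy to the same patient as one from after it, and a treatment label states that every sample followed a cycle, so a difference between times can be a difference between patients. A tag for PD-1-positive cells stands in the sample names at the earlier time and is missing at the later. The labels name mouse as the organism, but the files hold human genes. With 1 library per group no comparison of single libraries has a replicate check, and the intervals printed are 95% intervals for counting error alone.

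Monocytes are phagocytes that circulate in the blood and can become macrophages or some dendritic cells in tissue. They arise from the myeloid lineage, under the transcription factor SPI1 and the growth factor receptor CSF1R, and CD8+ T cells belong to the lymphoid lineage. Their RNA is rich in lysozyme (LYZ) and in S100A8 and S100A9, which pair as calprotectin, a metal-binding antimicrobial protein. Classical monocytes carry CD14, the co-receptor for bacterial lipopolysaccharide, and non-classical monocytes carry the Fc receptor FCGR3A, which NK cells and some cytotoxic T cells also express. In bulk RNA such as this, more cells of a type and more RNA per cell cannot be told apart.

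The libraries held 65500644 to 129773591 counts, and both libraries from after therapy were the deeper ones. Levels are CPM, counts scaled to the library size with TMM factors. The markers of the sort were abundant everywhere: CD8A lay between 850 and 1576 CPM, CD8B between 599 and 699 CPM and CD3E between 546 and 758 CPM. Epithelial genes, 6 in the list, summed to 162 CPM in the responder library before therapy and to between 2.35 and 7.99 CPM in the others, and their part in the values from that library was not tested. A count of 3 in a library, used as the floor for a gene with no count, corresponds to between 0.0238 and 0.0452 CPM.

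The 45 genes took up a small part of every library, and the largest part in the non-responder after therapy. Their counts summed to 0.0244% of the responder library before therapy (Wilson interval 0.0241 to 0.0247%) and 0.0299% of the non-responder library (0.0295 to 0.0303%). After therapy they summed to 0.237% (0.236 to 0.237%) in the responder and 1.19% (1.187 to 1.191%) in the non-responder. These shares need no scaling factor. Both libraries from before therapy were low, the responder after therapy was intermediate and the non-responder after therapy was high, and this order held for most of the genes.

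LYZ (ENSG00000090382, hg38 chromosome 12: 69348341 to 69354234), which cuts bacterial cell walls, stood at 8.29 CPM for the responder against 34.4 CPM for the non-responder before therapy, and at 799 and 3640 CPM after it. S100A9 (ENSG00000163220, chromosome 1: 153357854 to 153361027) stood at 33.9 and 39.7 CPM before and at 339 and 1726 CPM after therapy. Its partner S100A8 (ENSG00000143546, chromosome 1: 153390032 to 153391188) stood at 25.2 and 33.1 CPM before and at 270.1 and 1371 CPM after therapy. For all 3 genes the libraries from after therapy lay above those from before, with the non-responder highest. CD14 stood at 6.47 and 12.4 CPM before and at 54.9 and 197 CPM after therapy. CSF1R, the receptor for the growth factor that monocytes need, stood at 1.11 and 3.63 CPM before and at 21.4 and 137 CPM after therapy. SPI1, which directs myeloid development, stood at 0.749 and 1.72 CPM before and at 7.95 and 65.5 CPM after therapy. These genes had the same order of libraries as the calprotectin pair.

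Counted per kilobase of the transcript length in the files, which is the scale on which genes can be set against each other, S100A9, LYZ and S100A8 were the top 3 genes in both libraries from after therapy. S100A9 stood at 588 CPM per kb in the responder and 2991 in the non-responder, LYZ at 453 and 2064, and S100A8 at 268 and 1363. AIF1, an actin-binding protein of phagocytes, ranked 4 in the non-responder and 7 in the responder, and CD14 ranked 8 and 6. Over the 45 genes the log2 CPM of both libraries had a Pearson r of 0.896 and a Spearman rho of 0.918, as a description across genes that share both libraries.

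**Figure D1:**
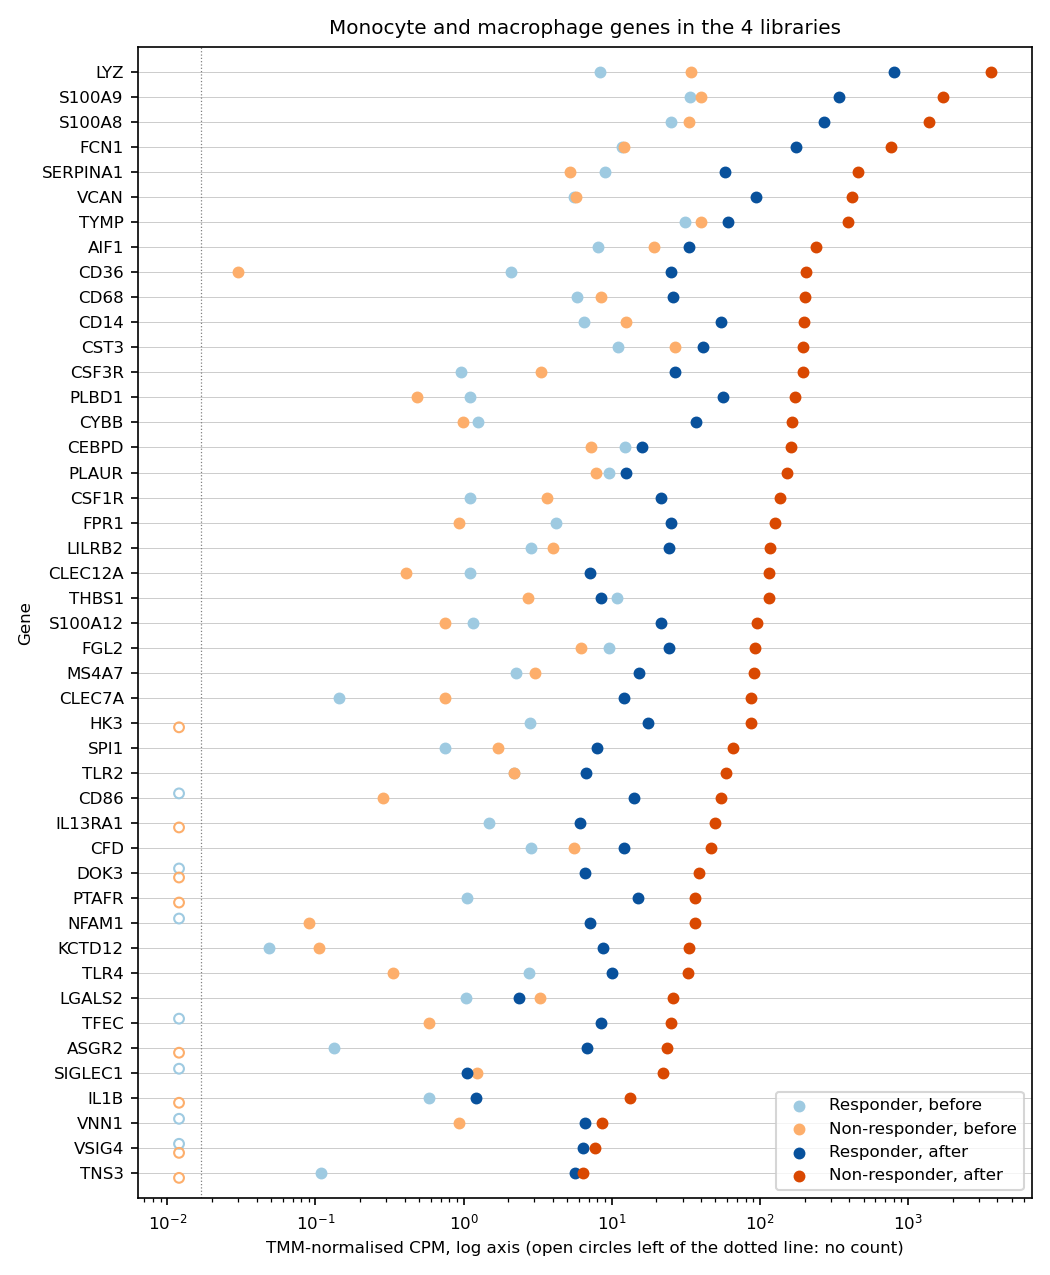
TMM-normalised CPM (log axis) of the 45 genes in each of the 4 libraries, 1 point per library, with genes ordered by the non-responder after therapy and open circles for no count. The non-responder library from after therapy is the rightmost point for all 45 genes. For THBS1, SIGLEC1 and LGALS2 a library from before therapy lies above the responder library from after it.

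The rise from before to after, which chose these genes, differed in size between the responder and non-responder pairs. The median was 10.6-fold in the responder pair and 63.98-fold in the non-responder pair, and the genes were higher after therapy in 44 and 45 of 45 cases. In the non-responder pair the smallest rise among genes with a count in both libraries was 7.26-fold, for CST3, a secreted protease inhibitor. In the responder pair 10 genes were under 4-fold and 4 were under 2-fold higher. PLAUR, the urokinase receptor, stood at 9.50 CPM before and 12.4 CPM after therapy in the responder, and CEBPD, a transcription factor induced in inflammation, at 12.2 and 15.9 CPM. TYMP, thymidine phosphorylase, stood at 31.4 and 60.6 CPM, and THBS1, thrombospondin of platelets and monocytes, at 10.9 CPM before and 8.39 CPM after. For these 4 genes the level in the responder pair thus differed by less than 2-fold between the times.

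Some of the genes had no count before therapy. The number was 7 in the responder library, 8 in the non-responder library and 2, DOK3 and VSIG4, in both. DOK3, an adaptor that restrains signalling in myeloid cells, stood at 6.63 CPM for the responder against 38.7 CPM for the non-responder after therapy, at least 183-fold and at least 857-fold above the floor of 3 counts per library. VSIG4, a complement receptor of macrophages, stood at 6.35 and 7.68 CPM, at least 175-fold and at least 169.8-fold above the same floor. The input was 1 ng of RNA, so a gene at 0 may have been missed in capture.

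After therapy, every one of the 45 genes was lower in the responder than in the non-responder library. The median log2 ratio of responder to non-responder was -2.34, which is a 5.08-fold higher level in the non-responder, and the middle 50% of genes lay between 3.87-fold and 7.83-fold. At least 2-fold lower in the responder were 42 of the 45 genes, or 93.3%, and 0 were at least 2-fold higher. Among the 12437 genes that reached 5 CPM, the share past 2-fold was 8.73% on the lower side and 5.97% on the higher side, and the median log2 ratio of all of them was 0.08. TNS3, VSIG4 and VNN1 were less than 2-fold apart. The ratio of the summed levels, which LYZ, S100A9 and S100A8 dominate, was 5.05-fold. The genes were chosen with earlier results of these libraries known, and as higher after therapy. The levels in this ratio thus entered the choice, and SIGLEC1, IL1B and LGALS2 reached 5 CPM in the non-responder only. This direction is therefore a description.

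**Figure D2:**
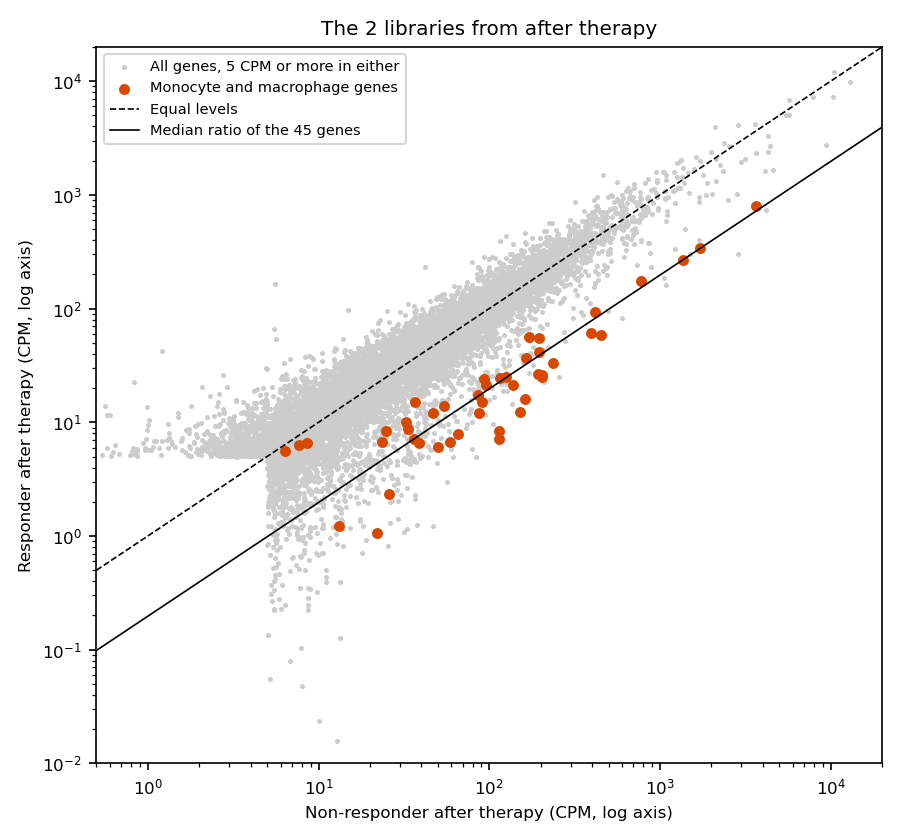
Level of each gene in the responder (y axis, CPM, log) against the non-responder library from after therapy (x axis, CPM, log), for all genes that reached 5 CPM in one of them and had a count in both, with the 45 genes in orange. The orange points scatter around the solid line, their median ratio of 5.08-fold, from 6.34 to 3640 CPM in the non-responder, with 3 points near the dashed line of equal levels.

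A single ratio described part of the genes to within a modest factor and few to within counting error. The counting intervals of 5 genes held the median ratio, those of S100A8, S100A9, NFAM1, FPR1 and HK3, and the intervals of 40 did not. Within 1.5-fold of the median lay 25 genes (55.6%) and within 2-fold 34 genes. Among all 12437 genes, 2.97% had a ratio within 1.5-fold of this value. The value is the median of the 45 genes themselves, whereas all genes centred on a log2 ratio of 0.08 (quartiles -0.30 and 0.44). Both shares therefore do not compare how tightly each set of genes lies together. The genes ranged from 1.13-fold for TNS3 to 20.9-fold for SIGLEC1. Over the 45 genes the SD of the log2 ratio was 0.89, and the median half-width of a counting interval was 0.07. Among all genes with at least 5 CPM the SD of the log2 ratio was 0.92 around their own median, and the interquartile range was 0.74 against 1.02 for the 45 genes.

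**Figure D3:**
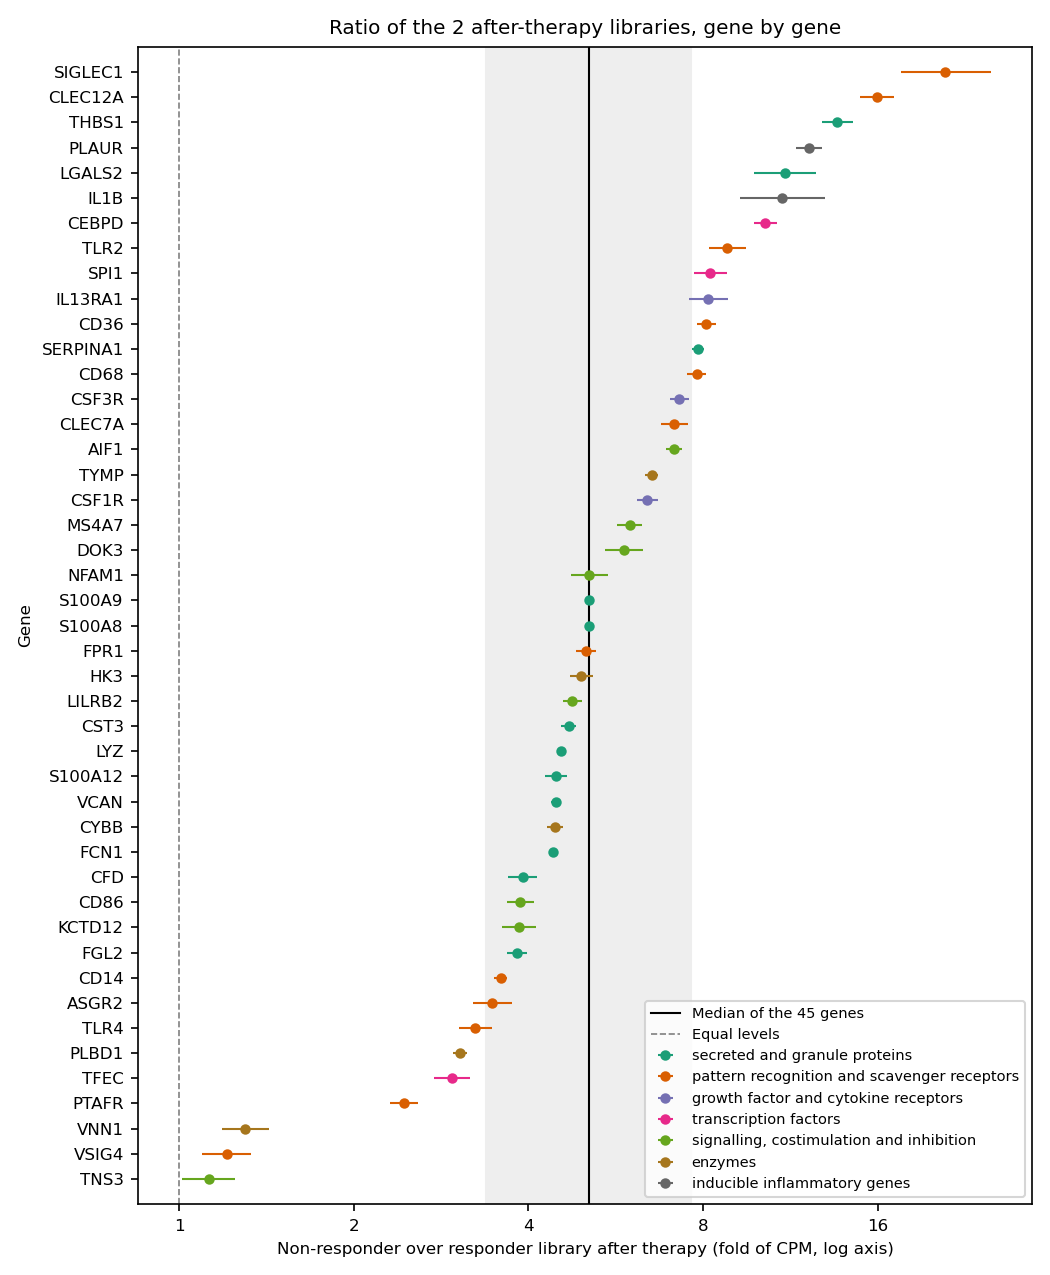
Fold of the non-responder over the responder library after therapy (x axis, log) for each of the 45 genes, with 95% counting intervals and colours for the gene's role. The black line is the median, 5.08-fold, and the grey band covers 1.5-fold to each side, which holds 25 genes; SIGLEC1 at 20.9-fold and TNS3 at 1.13-fold are the ends.

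Of the 12 secreted and granule proteins 9 were within 1.5-fold of the median, and their own median was 4.63-fold. S100A8 was 5.08-fold and S100A9 5.09-fold higher in the non-responder, with log2 intervals for the responder of -2.36 to -2.33 for both. LYZ was 4.56-fold higher (interval -2.20 to -2.18), S100A12, the third calgranulin of the cluster, 4.46-fold, and FCN1, a lectin that binds bacterial sugars, 4.41-fold. VCAN, a matrix proteoglycan made by classical monocytes, was 4.46-fold and CST3 4.69-fold higher. The antiprotease SERPINA1 at 7.83-fold, the lectin LGALS2 at 11.1-fold and THBS1 at 13.6-fold lay further toward the non-responder. CFD, a complement protease, at 3.91-fold and FGL2, a secreted fibrinogen-like protein, at 3.82-fold lay nearer to equal levels.

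Pattern recognition and scavenger receptors spread the most widely, from 1.21-fold for VSIG4 to 20.9-fold for SIGLEC1, with 4 of 12 genes within 1.5-fold of the median. SIGLEC1, a sialic acid receptor that interferon induces on monocytes, reached 1.05 CPM for the responder against 22.05 CPM for the non-responder after therapy. CLEC12A, an inhibitory lectin receptor, stood at 7.16 and 114 CPM, a 15.95-fold difference (log2 interval -4.09 to -3.90). The receptor for formylated bacterial peptides, FPR1, stood at 25.03 and 126 CPM and was 5.02-fold apart. The first 2 of these receptors lay well past the median ratio and FPR1 lay on it. Toll-like receptors TLR2 and TLR4, which sense bacterial lipoproteins and lipopolysaccharide, were 8.80-fold and 3.24-fold apart, and CD14, which hands lipopolysaccharide to TLR4, was 3.58-fold apart. CD36, a scavenger receptor also carried by platelets, was 8.10-fold and the lysosomal protein CD68 7.79-fold apart. CLEC7A, the receptor for fungal glucans, was 7.14-fold, ASGR2, a lectin subunit, 3.47-fold and PTAFR, the receptor for platelet-activating factor, 2.44-fold apart.

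The 3 growth factor and cytokine receptors analysed all lay past the median. CSF1R was 6.41-fold, CSF3R, the receptor for the granulocyte growth factor, 7.28-fold and IL13RA1, a chain of the interleukin-13 receptor, 8.17-fold higher in the non-responder. The 3 transcription factors were split: SPI1 was 8.23-fold and CEBPD 10.2-fold apart, and TFEC 2.95-fold. PLAUR and the cytokine gene IL1B, which monocytes switch on upon activation, were 12.2-fold and 10.9-fold apart, both more than 2-fold past the median ratio. In the responder library after therapy IL1B stood at 1.21 CPM and in the non-responder at 13.2 CPM.

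Genes of signalling, costimulation and inhibition were mostly near the median, with 7 of 8 within 1.5-fold. NFAM1, which activates immune cells through an ITAM motif, stood at 7.12 and 36.3 CPM and was 5.09-fold apart. LILRB2, an inhibitory receptor for HLA class I, was 4.76-fold, DOK3 5.84-fold and MS4A7, a tetraspan protein, 5.98-fold apart. AIF1 was 7.13-fold apart, the costimulatory ligand CD86 3.87-fold and KCTD12 3.85-fold. TNS3, a focal adhesion protein, was the exception, at 5.63 CPM for the responder against 6.34 CPM for the non-responder. Of the 5 enzymes, HK3, a hexokinase of myeloid cells, was 4.94-fold and CYBB, the catalytic subunit of the phagocyte NADPH oxidase, 4.45-fold apart. TYMP was 6.52-fold and PLBD1, a phospholipase-like protein, 3.04-fold apart. VNN1, a pantetheinase, stood at 6.59 and 8.58 CPM, 1.301-fold apart.

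The spread was wider among genes of lower level in the non-responder after therapy. That level is also part of the ratio, so the level ranges and the ratio are not independent. The 10 genes with at least 200 CPM in the non-responder after therapy ranged from 4.41-fold to 8.10-fold, with an SD of 0.37 on the log2 scale. The 20 genes between 50 and 200 CPM ranged from 3.04-fold to 15.95-fold, with an SD of 0.68, and the 15 genes under 50 CPM from 1.13-fold to 20.9-fold, with an SD of 1.23. For all genes in the same ranges of the non-responder library the SD was 0.68, 0.63 and 1.04. The interquartile range was 0.70, 0.91 and 1.36 for the 45 genes and 0.67, 0.59 and 0.84 for all genes. By this measure the 45 genes were not the tighter set in any range. The median counting interval half-width of the 45 genes was 0.03, 0.06 and 0.11 in these ranges, so counting error was smaller than the spread in each. The part of amplification from low RNA input in this spread was not tested.

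Genes with more of their level already present before therapy did not lie nearer to equal levels by their median. For 32 of the genes the higher library from before therapy was under 5% of the higher library from after it, and their median was 5.05-fold. For 13 genes it was between 5 and 25%, with a median of 6.52-fold, and for 0 genes over 25%. LYZ was at 0.946% on this measure, S100A9 at 2.30%, TYMP at 10.1% and CST3 at 13.8%. With the level of the same response group before therapy subtracted from each library, the median over 44 genes was 5.68-fold. The SD of the log2 ratio was then 1.14, against 0.89 without subtraction. The interquartile range was 0.99, against 1.02 without subtraction, so the spread was wider by the SD and not by this measure. THBS1 gave no value, as it was higher before than after therapy in the responder. PLAUR moved from a log2 ratio of -3.61 to -5.63 and CEBPD from -3.36 to -5.40.

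Ratios of counts between genes within a library need no scaling, and they compared the mix of monocyte transcripts across the libraries. For each count of S100A9 there were 0.796 counts of S100A8 in the responder (interval 0.785 to 0.808) and 0.795 in the non-responder after therapy (0.789 to 0.800), and 0.742 and 0.832 before therapy. LYZ gave 2.35 and 2.11 counts per count of S100A9 after therapy, and only 0.245 and 0.867 before it. TYMP gave 0.179 and 0.229 after and 0.925 and 1.00 before therapy. The proportion of the calprotectin pair thus moved little across the 4 libraries, whereas LYZ was lower and TYMP higher relative to S100A9 in both libraries from before therapy. FCN1 gave 0.514 and 0.446 after and 0.344 and 0.303 before, and VCAN 0.275 and 0.241 after and 0.163 and 0.143 before. Per count of S100A9, CD14 gave 0.162 and 0.114 after therapy and SERPINA1 0.171 and 0.263, so that these genes differed between the responder and non-responder after therapy beyond counting error and in opposite directions. LYZ, S100A8 and S100A9 together made up 57.9% and 54.8% of the counts of the 45 genes after therapy in the responder and non-responder, and 29.0% and 36.3% before.

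**Figure D4:**
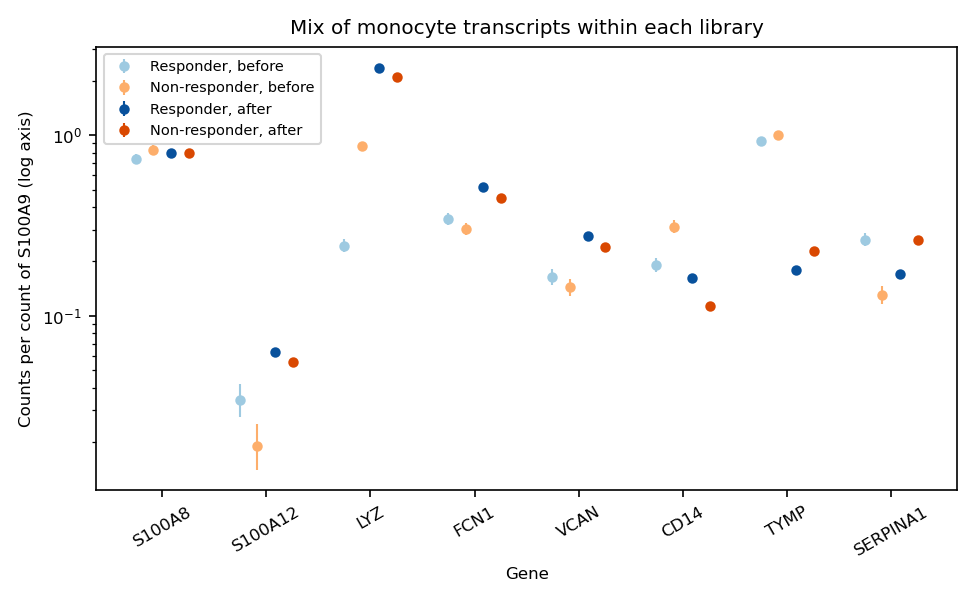
Counts of 8 genes per count of S100A9 (y axis, log) within each of the 4 libraries, with 95% counting intervals. S100A8 lies between 0.742 and 0.832 in all 4 libraries, LYZ lies above 2 in both libraries from after therapy and under 1 in both from before, and TYMP lies the other way.

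Other gene lists gave the ratio for other cell types in the same libraries. Of 20 further monocyte genes 19 reached 5 CPM, their median was 5.36-fold, and 17 were at least 2-fold lower in the responder. Some of them reached 5 CPM in the non-responder only, which favoured this direction. The protease CTSS, also a gene of other leukocytes, stood at 375 CPM for the responder against 852 CPM for the non-responder, a 2.27-fold difference, and CPVL, a carboxypeptidase, at 46.1 and 222 CPM. MNDA, a nuclear antigen of myeloid cells, was 3.39-fold apart. Of 9 non-classical monocyte genes 5 reached 5 CPM, some of them in the non-responder only, with a median of 4.12-fold. FCGR3A went the other way at 279 CPM for the responder against 140.5 CPM for the non-responder. Summed over the whole list, which FCGR3A dominates, the levels were 304 CPM for the responder against 265 CPM for the non-responder. The receptor FCGR3A shares near-identical sequence with FCGR3B, so counts of the pair are uncertain. Tissue macrophage genes were low: 3 of 10 reached 5 CPM, and C1QA, a complement subunit, stood at 0.222 and 8.63 CPM. CD5L and SPP1 had no count in either library from after therapy.

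Partners of these genes in phagocyte pathways did not share one ratio. Of 20 such genes 19 reached 5 CPM, 14 were at least 2-fold lower in the responder, and the median was 4.06-fold. Some of them, LY96 included, reached 5 CPM in the non-responder only, which favoured this direction. RAC2, MYD88 and CYBA, which lymphocytes also express, stood at 637 and 417 CPM, 398 and 352 CPM, and 332 and 304 CPM in the responder and non-responder. The oxidase subunit NCF1, which works with CYBB, was 5.30-fold higher in the non-responder, although it has near-identical pseudogenes that can share its reads. The adaptors FCER1G and TYROBP were 5.37-fold and 4.43-fold higher, and the TLR4 partner LY96 3.74-fold. Among 14 inducible myeloid genes 7 reached 5 CPM, with a median of 4.92-fold. Some of them, CXCL8 included, reached it in the non-responder only, which favoured this direction. Below 5 CPM the listed genes went both ways. NLRP3, an inflammasome sensor, stood at 10.7 and 42.6 CPM and CXCL8, a chemokine for neutrophils, at 4.12 and 25.1 CPM, while OSM, a cytokine that T cells also make, stood at 21.7 and 19.7 CPM.

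Dendritic cell and platelet genes were also lower in the responder, with larger ratios. The 4 conventional dendritic cell genes of 8 that reached 5 CPM had a median of 14.8-fold, with CD1C, a lipid-presenting molecule, at 0.396 and 13.3 CPM and FCER1A at 2.95 and 29.3 CPM. The 8 of 11 platelet genes had a median of 8.75-fold, with the chemokine PPBP at 4.95 and 61.5 CPM. The 3 of 7 plasmacytoid dendritic cell genes had a median of 6.66-fold. Every gene counted in these lists except TUBB1 reached 5 CPM in the non-responder library only. The minimum level thus favoured this direction and large ratios in these medians. Summed over the whole list, platelet genes stood at 22.9 CPM for the responder against 206 CPM for the non-responder after therapy, and conventional dendritic cell genes at 5.09 and 67.2 CPM. CD36 and THBS1 are also platelet genes, and the part of platelet RNA in their ratios was not tested.

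Lymphocyte genes, and the neutrophil genes that reached 5 CPM, did not have the ratio of the monocyte genes. The 7 sort markers were higher in the responder, with the non-responder at 0.692 of its level by the median, the 5 NK cell genes at 0.624 and the 3 of 10 B cell genes at 0.710. Of 13 neutrophil genes 3 reached 5 CPM, all higher in the responder, and CXCR2 stood at 9.01 CPM for the responder against 3.49 CPM for the non-responder. Apart from FCGR3B these genes reached 5 CPM in the responder only, so the minimum level favoured that direction. Counts of FCGR3B are uncertain, as it shares near-identical sequence with FCGR3A. Below 5 CPM most of the listed neutrophil genes with a count after therapy went the other way. MMP8 and CEACAM8, defining neutrophil genes, had no count in either library from after therapy. MPO, ELANE, LTF and CAMP had none in the responder and stood at 2.11, 0.305, 0.484 and 0.0806 CPM in the non-responder. Of the basophil and mast cell genes only KIT reached 5 CPM, at 6.05 CPM in the non-responder with no count in the responder. Epithelial genes stood under 5 CPM in both libraries from after therapy.

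**Figure D5:**
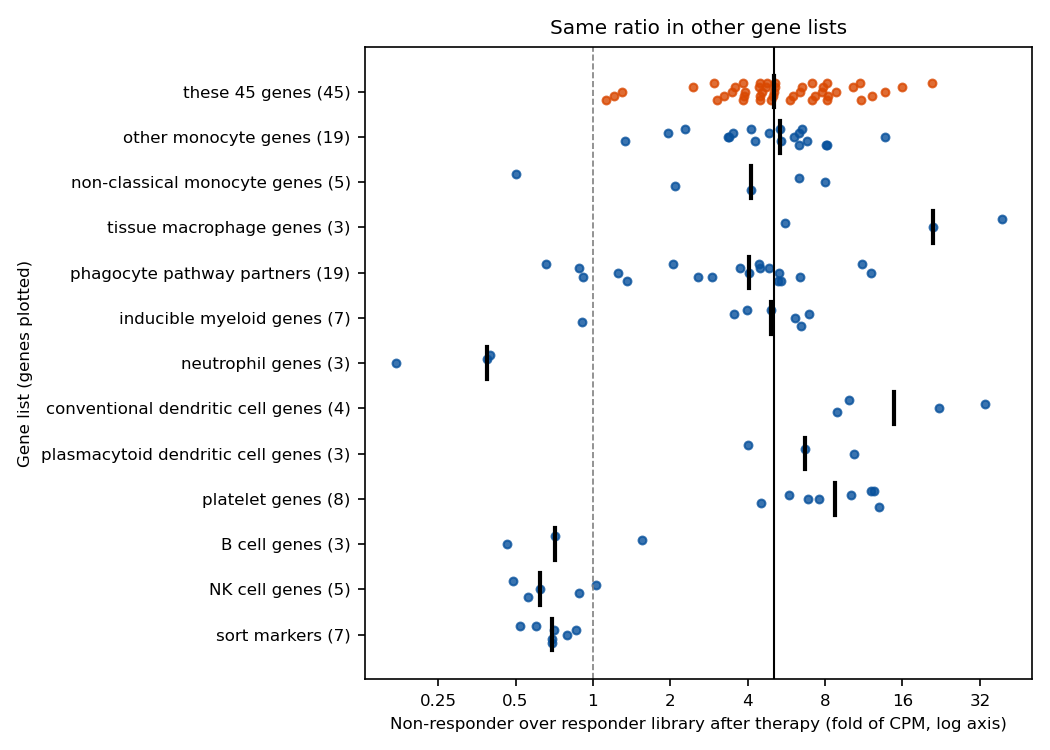
Fold of the non-responder over the responder library after therapy (x axis, log) for genes that reached 5 CPM in one of them and had a count in both, 1 row per gene list with the number of genes plotted; short bars are medians and the solid line marks 5.08-fold. The other monocyte, non-classical, partner and inducible lists centre between 4.06-fold and 5.36-fold, tissue macrophage, platelet and conventional dendritic cell genes lie further right, and neutrophil, B cell, NK cell and sort marker genes centre below 1. The plotted tissue macrophage and conventional dendritic cell genes, and most platelet genes, reached 5 CPM in the non-responder only, which favours the right side. The same held for some genes of the other monocyte, non-classical, partner and inducible lists. The plotted neutrophil genes except FCGR3B reached it in the responder only, which favours the left side.

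Genes outside the list with the same rise after therapy had a similar median ratio. At least 4-fold higher after than before in both pairs, with at least 5 CPM after therapy, were 197 other genes, and their median log2 ratio of responder to non-responder was -2.21. Within 1.5-fold of the median of the 45 genes lay 95 of them, or 48.2%, and 12 lay at least 2-fold higher on the responder side. Of the 45 genes 35 met the same criterion, and 22 of these lay within 1.5-fold of the median. The levels after therapy entered both this selection and the ratio, and some genes reached 5 CPM in a single library. Some, such as CPVL and MPEG1, also stand in the list of further monocyte genes, so these values are a description and not separate evidence. The most abundant of the other genes included CPVL, MS4A6A at 43.2 and 209 CPM, MPEG1, a pore-forming protein of phagocytes, at 39.2 and 168 CPM and the metal transporter SLC11A1 at 19.0 and 120.1 CPM for responder and non-responder. TNFAIP2 stood further off, at 22.5 and 208 CPM.

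Before therapy the same genes were low and did not share a direction. Of the 45 genes 16 reached 5 CPM in either library from before therapy, and their median log2 ratio of responder to non-responder was -0.29, against 0.10 for all genes. At least 2-fold lower in the responder were 3 of them, LYZ, CST3 and AIF1, and 1, THBS1, was at least 2-fold higher. Among all 12330 genes at 5 CPM, the share past 2-fold was 8.52% on the lower side and 12.3% on the higher side. LYZ was 4.15-fold and CST3 2.45-fold higher in the non-responder before therapy, and AIF1 2.38-fold. FPR1 stood at 4.21 CPM for the responder against 0.934 CPM for the non-responder, and CD36 at 2.08 and 0.0301 CPM. Over the 34 genes with at least 1 CPM before therapy the median was -0.04.

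Across all genes, response was tested with time as a covariate by the quasi-likelihood test of edgeR over all 4 libraries. At an adjusted p under 0.05 it called 0 of 24087 genes (0%), and 2113 genes had an unadjusted p under 0.05. Of the 45 genes 39 had a lower fitted level in the responder, 15 had an unadjusted p under 0.05, all lower in the responder, and 0 were called. In this edgeR fit LYZ was -2.14 ± 0.18 (log2 ratio ± SE, adjusted p = 0.558), and CLEC7A, CSF3R and CSF1R were -2.67 ± 0.32, -2.37 ± 0.36 and -2.24 ± 0.34 with the same adjusted p. S100A9 was -1.31 ± 0.60 (edgeR, adjusted p = 0.595) and CD14 -1.41 ± 0.305 (adjusted p = 0.558). DESeq2 on the same design called 883 of 24087 genes, 469 lower and 414 higher in the responder. Among them were 17 of the 45, all lower in the responder. With limma-voom 0 genes were called. The model has 1 residual degree of freedom and treats the difference between the ratios at both times as error. That difference was small for LYZ, at -2.05 before and -2.19 after therapy, and larger for S100A9, at -0.23 and -2.35 (log2 ratios of responder to non-responder).

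Reads of overlapping genes can be shared, since the strand setting of the counting is not given in the sources used here. For 23 of the 45 genes another gene entry overlapped by position, and for 11 such an entry reached 5 CPM after therapy. Among these are LYZ, with a noncoding RNA inside it, TYMP, with SCO2 at 27.2 and 125 CPM, CD68, with SNORA67 at 225 and 486 CPM, and LILRB2, with LILRA6 and RPS9. CLEC12A, which stood at the far end of the ratios, overlaps the platelet gene CLEC1B at 0.967 and 11.7 CPM.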

How the data were processed

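Per the labels' protocols, libraries were made from 1 ng of RNA of sorted CD8+ T cells and read for 101 bases from each end. The submitters' processing notes name bcl2fastq 1.8.4, TopHat2 and hg38, and the counting tool and annotation were not given in the sources used here. The deposited files hold raw counts per gene. From these, entries off the main chromosomes (4146) and sex-informative entries (666, CSF2RA included) were left out of tables and scaling, and library totals kept all counts; the copies of listed genes on alternate contigs had 0 counts.

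Log2 ratios used TMM scaling (edgeR 4.0.16, R 4.3.3) and a prior count of 0.5, with exact conditional binomial intervals; printed folds are ratios of CPM without the prior, except medians. The minimum level was 5 CPM and the fold for a called ratio 2. The response test was edgeR's quasi-likelihood test with filterByExpr and Benjamini-Hochberg adjustment over all genes tested. Simulated counts checked its direction only at a variability below that of these data, and its power at theirs is not reported here. The SE is the log2 ratio divided by the square root of F. DESeq2 1.42.0 and limma 3.58.1 were alternatives. The spread behind the p-values is that of these libraries alone and may be technical. Intervals cover counting error only, as no molecular identifiers are stated.

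The genes, roles and 14 comparison lists were chosen with earlier results of these data known. Genes named are the listed members, the 3 most abundant genes per list and the 10 most abundant other genes that rose, of which a subset is printed and several are not reported here. CYBA, NCF1, FCER1G, TYROBP, LY96, OSM, CD5L, SPP1, CLEC1B, the overlapping genes and the neutrophil genes at 0 were named after their values were seen.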

Additional observations from a re-analysis of the deposited data

Results flagged for a closer look

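Of the 45 genes, THBS1 was the one that reached 5 CPM at both times and was at least 2-fold apart in opposite directions before and after therapy. It stood at 10.9 CPM for the responder against 2.71 CPM for the non-responder before therapy, and at 8.39 and 114 CPM after it. The log2 ratio of responder to non-responder was 2.00 before and -3.77 after therapy, a difference of 5.77. With 1 library per group this difference was not tested.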

How the results depend on the processing

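The median log2 ratio after therapy, -2.344, was -2.35 with DESeq2 size factors, -2.336 with library size only and -2.506 with the level before therapy subtracted. The count of genes at least 2-fold lower in the responder stayed between 41 and 42 under every alternative run, and the count within 1.5-fold of the median between 23 and 25; a narrower tolerance gave 14 and a tolerance of 2-fold 34. The median before therapy, -0.286, was -0.334 with DESeq2 size factors, -0.235 with library size only, -0.041 at a minimum of 1 CPM, -0.229 without a minimum and -0.393 at 20 CPM, where 5 genes were left. The response test called 0 genes in edgeR under each alternative and in limma-voom, and 883 with DESeq2; the cause was not tested. Leaving out each library in turn, in a fit without the time term that was added after the data were seen and assumes that a lone library varies like the other arm, also called 0. No paired analysis was possible because the labels tie no library from before therapy to the patient of one from after it; time was a covariate of the response test. No gene printed with a called ratio changed direction. Counting error is small for the 45 genes after therapy, with at least 133 counts in each library, but before therapy 13 of them lacked a count in at least 1 library.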

Other observations

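The most abundant of the other genes that rose after therapy was RP11-1143G9.4 (ENSG00000257764, hg38 chromosome 12: 69353493 to 69354225), a noncoding RNA that lies wholly within the position of LYZ and overlaps it by 733 bases. It stood at 301 CPM for the responder against 1500.2 CPM for the non-responder after therapy. Per count of LYZ it gave 0.393 counts (interval 0.340 to 0.453) in the responder and 0.429 (0.398 to 0.463) in the non-responder before therapy, and 0.377 (0.372 to 0.381) and 0.412 (0.410 to 0.414) after it. The ratio stayed between 0.377 and 0.429, while LYZ was 8.29 CPM in the lowest of the 4 libraries and 3640 CPM in the highest.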
